A study of Mus musculus with 4 samples.

Results

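Small nucleolar RNAs (snoRNAs) and their Cajal body relatives (scaRNAs) were followed in long-term haematopoietic stem cells (HSCs) of the mouse, which maintain blood formation for life. The genes were taken by name. Every deposited row whose single gene symbol starts with Snora, Snord or Scarna was included with no filter on level, which gave 107 of 23185 named genes. They comprised 34 genes of the H/ACA class (Snora), 65 of the C/D class (Snord) and 8 of the Cajal body class (Scarna). In the 4 groups, marrow cells sorted as Lin- ckit+ Sca+ had received 0, 0.02, 0.1 or 0.5 Gy of γ-irradiation before transplantation. Every recipient, those of the 0 Gy group included, was itself lethally irradiated. The graft was left for 6 months. Long-term HSCs were then sorted by the gate Lin- ckit+ Sca+ Flk2- CD48-CD150+, and total RNA of each dose went on 1 whole-transcript array. Strain, age and the number of recipient mice behind each RNA are not given in the labels, and the gate as listed names no donor marker. There is thus no spread within a dose, and each difference below compares 2 arrays with no test.

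Both large classes guide chemical changes on other RNAs by base pairing. C/D snoRNAs direct methylation of ribose sugars and work with fibrillarin, Nop56, Nop58 and Snu13. H/ACA snoRNAs direct the conversion of uridine to pseudouridine and work with dyskerin, Nop10, Nhp2 and Gar1. Their main targets are ribosomal RNAs, and a few members instead help to cut the ribosomal precursor. The scaRNAs act in Cajal bodies on the small nuclear RNAs of the spliceosome. In mammals most snoRNAs have no promoter of their own and are released from introns of a host gene, often one that encodes a ribosomal or nucleolar protein.

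Values are deposited log2 intensities, so 1 unit is a 2-fold difference. The median of all gene means, 4.06, marks low levels below. It is no detection limit, and where either value lies under it the size of a difference is uncertain. A mature snoRNA and the intron it is cut from carry the same sequence, so these probe sets cannot tell the mature RNA from the unprocessed host transcript. RNA was extracted on a silica column kit, a format made for longer RNAs than snoRNAs. The count of probes in each set was not used here. In such samples fewer cells of a type and less RNA per cell cannot be told apart.

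The gate was checked by transcript. Of the long-term HSC markers 5 were measured, all above 4.06 on each array. Their summed log2 level was 42.1, 45.6, 42.0 and 42.9 at 0, 0.02, 0.1 and 0.5 Gy, highest at 0.02 Gy, where Procr was 1.38 and Slamf1 0.98 above 0 Gy. Flt3, which encodes Flk2, had 4.46, 4.76, 5.44 and 4.76 at 0, 0.02, 0.1 and 0.5 Gy, and Cd48 had 4.13, 3.08, 4.11 and 4.13. Cd34, a marker of cells past the long-term stage that the labelled gate does not name, had 8.68, 7.79, 9.77 and 9.70, above 4.06 on every array and 1.09 and 1.03 higher at 0.1 and 0.5 Gy than at 0 Gy. Of 3 T cell markers none reached that level at 0, 0.1 and 0.5 Gy and 1 did at 0.02 Gy. Markers of other blood cells moved between arrays. The summed log2 level of 7 B and plasma cell markers was 55.5, 61.2, 54.0 and 47.0 in the same order (5, 6, 6 and 5 of 7 at that level). Its genes differed widely in level. Ms4a1 lay between 2.23 and 2.32, whereas Igkc had 12.66, 12.83, 12.29 and 11.70. Ighm had 10.93, 11.20, 11.35 and 7.21, and Jchain had 9.75, 10.69, 8.46 and 7.32. At 0.5 Gy the difference from 0 Gy was -3.72 for Ighm and -2.43 for Jchain. The summed log2 level of 6 neutrophil and granulocyte progenitor markers was 28.3, 32.2, 43.0 and 35.4 (3, 4, 6 and 6 of 6). That of 3 erythroid markers was 21.6, 19.8, 24.7 and 25.8 (3 of 3 on each array). That of 4 genes listed as monocyte markers was 25.4, 28.8, 21.8 and 23.2 (3, 3, 2 and 3 of 4), with Csf1r at 3.11 throughout. These did not move together. At 0.02 Gy the difference from 0 Gy was 1.68 for Cd68, 1.90 for Ly6c2 and -0.26 for Cd74. The part of these cells in the results below was not tested.

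Members were spread over almost the whole intensity scale. Their means over the 4 arrays ran from 1.67 to 10.29, with a median of 4.68 against 4.06 for all named genes. On all 4 arrays 55 members were at or above 4.06, on no array 18, and the remaining 34 crossed that level. By class, 21 of 34 H/ACA, 28 of 65 C/D and 6 of 8 Cajal body genes were at or above it on every array. Their annotated lengths ran from 42 to 275 bases.

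The brightest Cajal body member was Scarna9, which guides changes on the U2 small nuclear RNA. It had 10.40, 9.91, 10.22 and 10.64 at 0, 0.02, 0.1 and 0.5 Gy. Scarna2, another U2 guide, had 8.64, 8.64, 9.24 and 8.52, and Scarna13 had 8.76, 8.16, 7.96 and 8.61. These 3 stayed within 0.80 log2 units over the arrays. Snord104 led the C/D class by mean with 9.83, 9.87, 9.71 and 10.25, followed by Snord13 and by Snord118, the U8 RNA needed to process the large-subunit precursor. Snord118 had 8.48, 8.36, 8.57 and 8.51, a range of only 0.21. Among H/ACA genes, Snora81 had 9.27, 8.82, 7.89 and 8.03, so that it was 2.61-fold lower at 0.1 Gy and 2.36-fold lower at 0.5 Gy than at 0 Gy. Snora47 had 8.38, 7.87, 8.10 and 9.19, and Snora3 had 7.94, 7.90, 8.91 and 8.43. At the other end, Snord64, from the imprinted Snhg14 locus best known from neurons, had 1.72, 1.72, 1.79 and 1.47. Snora35, inside the serotonin receptor gene Htr2c, had 3.11 on 3 arrays and 3.32 at 0.5 Gy. Both of these members from loci known mainly from brain lay below 4.06 on every array. So did members of other loci, such as Snord72 inside Rpl37 and Snora70 inside Rpl10, with means of 1.92 and 2.23.

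**Figure D1:**
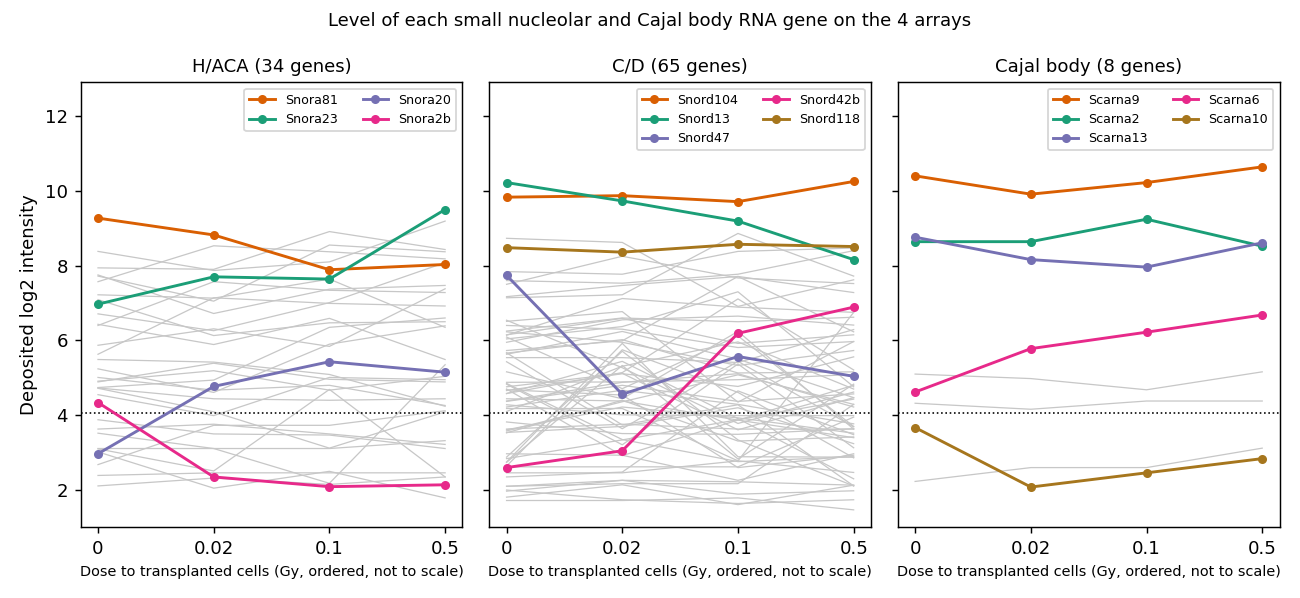
Deposited log2 intensity (vertical axis) of each of the 34 H/ACA, 65 C/D and 8 Cajal body genes on the 4 arrays, with dose in Gy on an ordered axis and 1 array per dose. Grey lines are single genes, coloured lines the genes named in the key, and the dotted line the median gene mean of 4.06. Snord118 stays between 8.36 and 8.57 while Snord13 runs from 10.22 at 0 Gy to 8.16 at 0.5 Gy.

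The members did not shift as a body in 1 direction. Their median log2 difference from 0 Gy was 0.00 at 0.02 Gy, 0.06 at 0.1 Gy and 0.02 at 0.5 Gy, beside 0.00 at each dose over all named genes. They differed one by one. On the 0.02 Gy array 10 members exceeded their 0 Gy value by 2-fold or more (1.81% of all named genes did) and 11 lay 2-fold or more under it (1.1%). The 0.1 Gy array had 17 such members above (1.13%) and 15 below (1.69%). The 0.5 Gy array had 17 above (1.23%) and 19 below (1.87%). In either direction this was 19.6%, 29.9% and 33.6% of the members, beside 2.91%, 2.83% and 3.11% of all named genes. By class, 6 of 34 H/ACA, 13 of 65 C/D and 2 of 8 Cajal body genes were at least 2-fold different at 0.02 Gy. At 0.1 Gy the counts were 9, 21 and 2, and at 0.5 Gy 13, 22 and 1. The 0 Gy array enters all 3 comparisons, so these counts are not independent.

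The irradiated arrays also differed from each other. Between 0.1 and 0.02 Gy, 28 members were at least 2-fold apart (3.22% of all named genes), between 0.5 and 0.02 Gy 25 (3.36%), and between 0.5 and 0.1 Gy 29 (2.37%). The 0 Gy array stood at least 2-fold from each of the other 3 in 1 direction for 9 members (0.604% of all named genes). The 0.02 Gy array did so for 3 (1.13%), the 0.1 Gy array for 8 (0.505%) and the 0.5 Gy array for 13 (0.681%). The array that stood apart for the most members was thus that of 0.5 Gy.

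Over the 4 arrays, 58 of 107 members spanned at least 2-fold between their lowest and highest value (8.22% of all named genes), and the median span was 1.10 against 0.30 log2 units. Exact ties between arrays, which lower a span, occurred in 18.7% of the members, 54.0% of the other short genes named next and 57.4% of all named genes. Identical on all 4 arrays were 0, 40 and 1572 genes of these sets. Other short genes were the nearest comparison. Of 624 other genes no longer than the longest member, 92 spanned at least 2-fold, with a median span of 0.31. These genes were dimmer, with a median mean of 2.61. Among the 120 of them with a mean at or above 4.06, 34.2% spanned 2-fold, beside 54.3% of the 70 such members and 12.2% of all such named genes. A mean filter keeps some genes through a single bright array, so these shares are a description. Wide spans were found among dim and bright members. Of members with a mean below 4.06, 20 of 37 spanned 2-fold, of those from 4.06 to 6, 21 of 37, of those from 6 to 8, 13 of 22, and of those at 8 or more, 4 of 11. Among genes that are no members the shares in these 4 bands were 4.08%, 17.0%, 10.5% and 3.83%. Across the 107 members, span and annotated length had a Pearson correlation of -0.15 and a Spearman correlation of -0.13, as a description over genes that share the same 4 arrays.

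**Figure D2:**
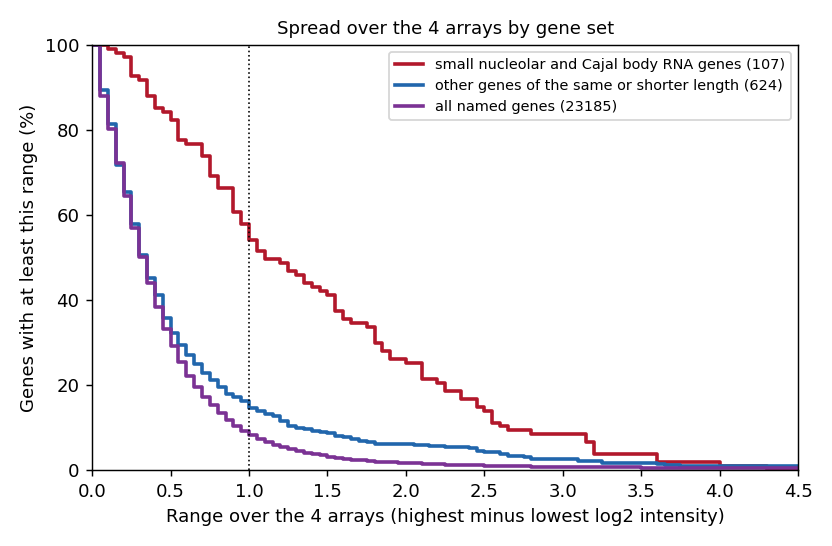
Share of genes (vertical axis, percent) whose highest and lowest log2 intensity over the 4 arrays differ by at least the value on the horizontal axis, for the 107 members, 624 other genes of the same or shorter length and all 23185 named genes. At the dotted line (1 log2 unit, 2-fold) lie 54.2% of the members, 14.7% of the other short genes and 8.22% of all named genes.

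limma fits across the 11593 genes with a mean at or above 4.06, of which 70 were members, called no member. Comparing the 3 irradiated arrays with the 0 Gy array, 0 of 70 members and 0 of 11593 genes (0%) had a limma adjusted p under 0.05, and 12 members had an unadjusted p under 0.05 (10.9% of genes tested did). For a straight line in dose the limma counts were again 0 members (0% of genes), and 12 members at an unadjusted p under 0.05 (12.3%). The smallest limma adjusted p of any member was 0.175 in the first fit, for Snora44, and 0.306 in the second. Each fit has 2 residual degrees of freedom. The first treats the doses as repeats of each other and the lone 0 Gy array as equally variable, and the second counts any departure from a line as error.

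At least 2-fold above 0 Gy at all 3 doses were 4 members (0.216% of all named genes), Snora20, Snora44, Scarna6 and Snora33. All 3 differences of a member rest on the single 0 Gy array. Snora20, inside the chaperonin gene Tcp1, had 2.97 at 0 Gy and 4.77, 5.43 and 5.15 at 0.02, 0.1 and 0.5 Gy, a difference of 1.80, 2.46 and 2.18. The 0 Gy array was thus the only 1 of the 4 on which it lay below 4.06. Snora44, inside the non-coding host gene Snhg12, had 5.63 at 0 Gy and 7.14, 6.99 and 6.92 after, so it was 2.85-fold, 2.57-fold and 2.44-fold higher. Its 3 irradiated values lay close together and above the 0 Gy value. Scarna6, inside the autophagy gene Atg16l1, had 4.62, 5.78, 6.22 and 6.68 and was 2.23-fold, 3.04-fold and 4.18-fold higher. Snora33, inside Rps12, had 2.68, 3.73, 3.73 and 4.12, mostly below 4.06. Snora28, inside the translation factor gene Eif5, and Snord4a came next, with smallest differences of 0.88 and 0.71.

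At least 2-fold below 0 Gy at all 3 doses were 5 members (0.388%), Snord47, Snora2b, Snord73a, Snord35b and Snord38a. Snord47, one of the C/D snoRNAs of the growth-arrest gene Gas5, had 7.74 at 0 Gy against 4.56, 5.57 and 5.04 at 0.02, 0.1 and 0.5 Gy. It was 9.06-fold, 4.49-fold and 6.51-fold lower, and all 4 values lay above 4.06. Snord38a had 6.54 against 5.27, 3.78 and 4.62, with its lowest value, at 0.1 Gy, below 4.06. Snord35b had 5.67 against 3.74, 4.28 and 2.11, the lowest difference of any member at 0.5 Gy (-3.56). Snord73a, inside Rps3a1, had 4.85 against 3.35, 2.76 and 2.89, and Snora2b, inside Kansl2, had 4.34 against 2.35, 2.09 and 2.14. For Snord73a and Snora2b the 0 Gy array was the only one above 4.06. Scarna10 followed with 3.67 against 2.08, 2.46 and 2.84, below 4.06 on every array.

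**Figure D3:**
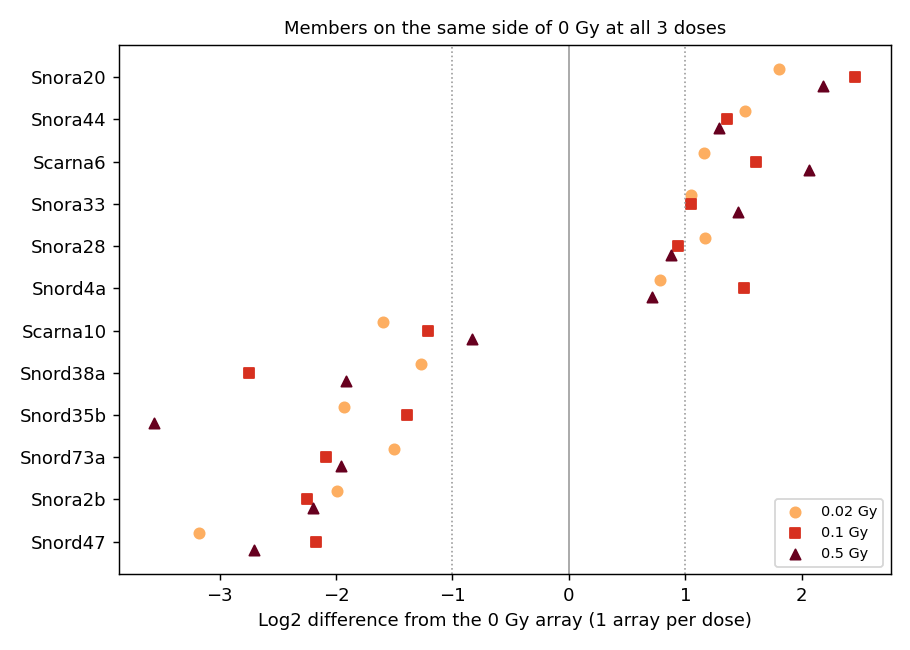
Log2 difference from the 0 Gy array (horizontal axis) at 0.02, 0.1 and 0.5 Gy for 12 members, 6 per direction, ranked by their smallest difference over the doses, 1 array per dose, with dotted lines at 2-fold. Snora20 lies between 1.80 and 2.46 and Snord47 between -3.18 and -2.17. The 3 points of a row share the 0 Gy array.

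The members highest at 0.02 Gy against 0 Gy had mostly low 0 Gy values. Snord42a, inside Rpl23a, had 2.75 at 0 Gy, 5.92 at 0.02 Gy and 2.89 and 2.88 at 0.1 and 0.5 Gy. Snord45b, inside Rabggtb, had 2.88, 5.71, 3.34 and 2.11. Both thus exceeded 4.06 at 0.02 Gy and on no other array. Snord69, inside the nucleolar GTPase gene Gnl3, had 2.64, 5.75, 4.61 and 2.86. Snord88a had 2.74, 5.33, 2.83 and 4.83. The lowest at this dose beside those above were Snord110 at -1.78, Snord35a at -1.77 and Snord52 at -1.61. Snord110, inside Nop56, had 5.43, 3.64, 5.44 and 3.69, and Snord52 had 4.83, 3.21, 5.37 and 3.13. Both were low at 0.02 and 0.5 Gy and near or above the 0 Gy value at 0.1 Gy.

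At 0.1 Gy, Snord42b, inside Rpl23a, led with 2.60, 3.05, 6.19 and 6.89 at 0, 0.02, 0.1 and 0.5 Gy, 12.0-fold higher at 0.1 Gy and 19.5-fold at 0.5 Gy. Its 2 low values lay below 4.06, so the size of this difference is uncertain. Snord15b, inside Rps3, had 4.58, 5.14, 7.11 and 5.21 and was 5.80-fold higher at 0.1 Gy. Snord16a, inside Rpl4, had 5.73, 5.99, 7.71 and 6.23 and was 3.93-fold higher. Each of Snord15b and Snord16a was above 4.06 on all arrays and highest at 0.1 Gy alone. Snord19, inside Gnl3, had 2.35, 2.48, 4.65 and 3.48. Among the lowest, Snord87 had 6.51, 6.77, 4.35 and 5.97 and was 4.47-fold lower at 0.1 Gy. Snord37, inside the elongation factor gene Eef2, had 4.68, 4.54, 2.60 and 2.93. Snord37 was low at both higher doses, Snord87 mainly at 0.1 Gy.

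At 0.5 Gy, Snord33 and Snord34, described with their host below, were 2.57 and 2.19 log2 units above 0 Gy, Snord34 from a 0 Gy value below 4.06. Snora23, inside the nuclear import gene Ipo7, had 6.97, 7.70, 7.64 and 9.50 and was 5.80-fold higher. It was bright on every array and brightest at 0.5 Gy. Snord53, inside Wdr43, had 6.09, 4.71, 6.12 and 3.70. Snord61, inside Rbmx, had 4.58, 5.44, 3.91 and 2.30. Both were at their lowest at 0.5 Gy, below 4.06, with differences of -2.38 and -2.28. Of the 36 members at least 2-fold different at this dose, 16 had both values at or above 4.06, 17 had 1 value below it and 3 had both below. At 0.1 Gy the counts were 15, 13 and 4 of 32, and at 0.02 Gy 8, 11 and 2 of 21.

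Snord13, the U13 RNA that with the acetyltransferase Nat10 serves acetylation of the small ribosomal RNA, was the bright member with the clearest order. It had 10.22, 9.73, 9.19 and 8.16 at 0, 0.02, 0.1 and 0.5 Gy, so it was lower at each step of dose, reaching 4.17-fold under 0 Gy at 0.5 Gy. Nat10 itself had 7.15, 6.88, 7.42 and 7.15. In all, 5 members were higher at each step of dose (1.81% of all named genes) and 3 lower (1.99%). The 5 were Snord111, Snord42b, Snord55, Scarna6 and Snora64, the last with 4.74, 4.94, 6.35 and 6.60. Beside Snord13, the lower ones were Snora62 and Snora68, the latter with 5.49, 5.42, 5.09 and 4.24. These 8 were 9.20% of the 87 members with 4 different values, beside 8.93% of all such named genes, so the share in dose order was near that of genes in general.

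By position, 97 members lay inside the span of 1 longer annotated gene, 6 inside the spans of several, and 4 inside none. The 4 were Snord13, Snord118, Scarna2 and Snord89, and the first 3 are known to be made from promoters of their own. Snord89 had 6.04, 6.37, 7.30 and 4.76 at 0, 0.02, 0.1 and 0.5 Gy, lowest at the highest dose. The 97 lay in 71 hosts, 58 of them protein-coding with 77 members and 13 non-coding with 20. Ribosomal protein genes were 21 of the hosts and held 31 members. The annotation table gives spans only, so whether a member lies in an intron or an exon, and on which strand, was not read from it. Snord87, for example, lies within Snhg6 and Mcmdc2, and the 6 members in several genes, Snord47 among them, were left out of the host comparison.

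Many snoRNA hosts belong to the class whose messages begin with a run of pyrimidines. The stretch from 15 bases before to 15 bases from each annotated start is shown for 6 hosts, chosen after their values were seen, whose members are set beside each other below, with the longest run of C and T in capitals (RefSeq, GRCm38.p6, coding strand).
Rpl13a, chr7:45128731-45128760 (-): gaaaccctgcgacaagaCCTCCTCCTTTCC
Snhg12, chr4:132308663-132308692 (+): ggccgttctcagTCCTTTCTCgcttcatcc
2410006H16Rik, chr11:62602862-62602891 (+): tcacgcgccgTCTTTCTCTgcggccatcat
Gnl3, chr14:31019117-31019146 (-): cgtaaaTCCaacctgtggccgccaggcgag
Kansl2, chr15:98534255-98534284 (-): gagcagCCagagggcaagctgcgcggtgcc
Wdr43, chr17:71616200-71616229 (+): aCCCCgcgccggtgcgcctgcgcccgggcg
Rpl13a, Snhg12 and 2410006H16Rik have runs of 13, 9 and 9 pyrimidines, and Gnl3, Kansl2 and Wdr43 runs of 3, 2 and 4. Rps3, Snhg3 and 2410002F23Rik, whose members are also compared below, have runs of 3, 5 and 4. Of 64 annotated starts of the 60 hosts in the table, 19 (29.7%) held a run of at least 7 pyrimidines in this window of 30 bases, beside 18.6% of 32851 starts of all genes. On the other strand, read as runs of A and G, the shares were 7.81% and 20.3%. Annotated starts can be some bases off, and a run is a description of these letters only.

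Of the 97 members, 79 had a measured host (59 hosts). Hosts were brighter, with a median mean of 8.15, and for 66 of 79 members the host had the higher mean, although levels of different probe sets are not on 1 scale. Some host probe sets were dim. Rpl10, Rpl3 and Tpt1 had means of 2.28, 3.05 and 3.14, and Snhg14, Htr2c and Snhg18 were below 4.06 too. No host was left out for its level. Hosts also spanned less, and exact ties between arrays, which lower a span, occurred among them. Atg16l1 had 5.04 on all 4 arrays, and Ipo7 and Zbed3 had only 2 different values each. Of 59 hosts, 5 spanned at least 2-fold over the arrays, against 45 of the 79 members, and the median span was 0.42 log2 units for hosts and 1.17 for members. The 5 were Tpt1, Rps13, Rpl23a, Kansl2 and Rpl13, with means of 3.14, 5.53, 5.51, 7.71 and 6.42. The member had the wider span in 68 of 79 pairs. At 0.02, 0.1 and 0.5 Gy, 16, 22 and 26 of these members were at least 2-fold from 0 Gy, and in 0, 2 and 0 of those the host was too. Of all 59 hosts only 2, 2 and 1 were that far from 0 Gy, so few overlaps could occur. The 2 members at 0.1 Gy, Snord42b and Snord4a, share the host Rpl23a. The host lay within 0.2 log2 units of its 0 Gy value, exact ties included, in 8, 16 and 16 of the 16, 22 and 26 members. Hosts in general lay near their 0 Gy values, with a median absolute difference of 0.16, 0.10 and 0.15 over the 59 hosts. Across the 79 pairs, which share arrays and in part hosts, the Pearson correlation between member and host differences was 0.21, 0.15 and 0.10, and the Spearman correlation 0.29, -0.09 and 0.07.

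**Figure D4:**
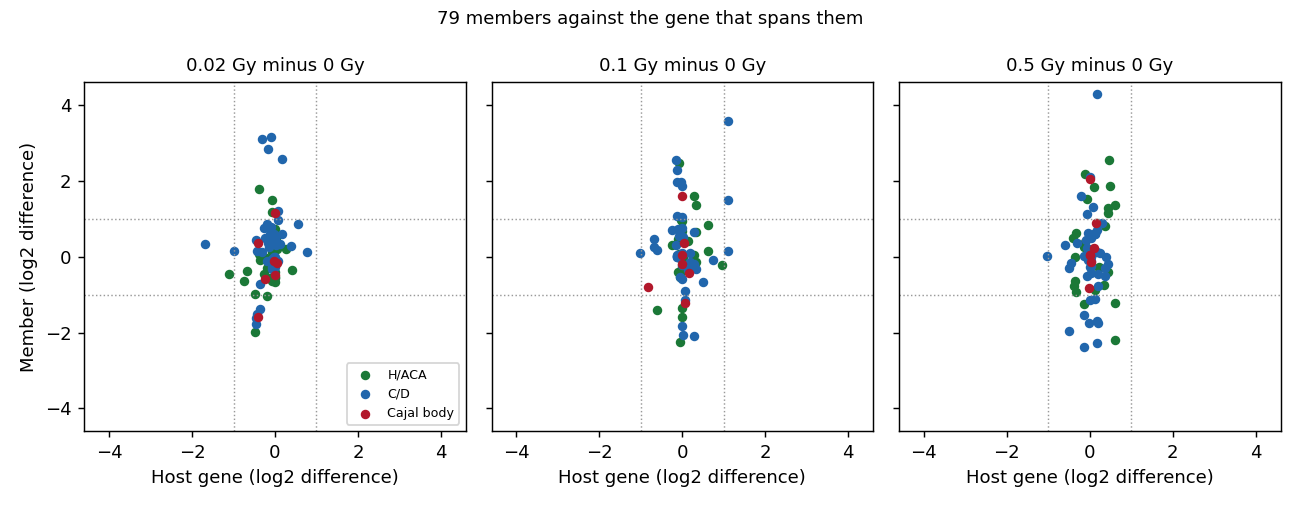
Log2 difference from 0 Gy of 79 members (vertical axis) against that of the gene spanning each (horizontal axis) at 0.02, 0.1 and 0.5 Gy, coloured by class, with both axes on the same scale and dotted lines at 2-fold. Points form a tall narrow band, with 16, 22 and 26 members past 2-fold and hosts mostly near 0.

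Members of the same host were then set beside each other. The 20 hosts with 2 or more members held 46 of them and gave 34 pairs. At 0.02 Gy 1 of the pair was at least 2-fold from 0 Gy and the other not in 19 pairs, and both were in 0. At 0.1 Gy, 17 pairs had 1 such member, 3 had both in the same direction and 1 had both in opposite directions. At 0.5 Gy these counts were 18, 4 and 3. The median gap between the 2 log2 differences of a pair was 1.0, 0.99 and 1.36. No such count was made for members of different hosts. With 19.6%, 29.9% and 33.6% of all members at least 2-fold from 0 Gy, pairs with 1 such member can arise among unrelated members too. Rpl13a and Snhg12, with 4 members each, give more pairs than any other host.

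Rpl13a holds Snord32a, Snord33, Snord34 and Snord35a, a set known in other cells for a part in lipid and oxidative stress. Snord32a had 7.60, 7.53, 7.77 and 8.40 at 0, 0.02, 0.1 and 0.5 Gy. Snord33 had 4.18, 4.18, 2.78 and 6.75, and Snord34 had 2.10, 2.17, 2.17 and 4.29. The first 3 were thus highest at 0.5 Gy. Snord35a instead was highest at 0 Gy, with 4.70, 2.92, 3.87 and 3.40. Rpl13a itself was not analysed here.

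Snhg12 holds Snora16a, Snora44, Snora61 and Snord99. Snhg12 had 8.08, 8.01, 8.40 and 8.53. Snora16a had 5.24, 4.61, 5.90 and 6.39, low at 0.02 Gy, where Snora44 was high. Snora61 (3.22 to 3.76) and Snord99 (3.49 to 3.82) lay below 4.06 on every array. At 0.5 Gy Snora16a and Snora44 were both at least 2-fold higher.

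In Rpl23a, Snord42a was high at 0.02 Gy alone and Snord42b at 0.1 and 0.5 Gy, as given above, while Snord4a had 3.58, 4.36, 5.08 and 4.29. Rpl23a had 5.21, 5.12, 6.31 and 5.39, at its highest at 0.1 Gy, as was Snord4a. In the non-coding gene 2410006H16Rik, which had 11.00, 11.07, 11.00 and 11.13, neighbours opposed each other. Snord49b had 8.73, 8.62, 6.91 and 7.62 and Snord49a 4.10, 5.31, 5.96 and 4.70, so that at 0.1 Gy the former was 3.53-fold lower and the latter 3.63-fold higher than at 0 Gy. Snord65, in the same gene, had 6.14, 7.12, 6.89 and 6.75.

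In other hosts the members ran alike on some arrays. In Wdr43, which encodes a nucleolar protein and had 9.53, 9.18, 9.40 and 9.41, Snord53 and Snord92 were both lowest at 0.5 Gy, Snord92 with 5.16, 4.44, 6.24 and 3.63. In Kansl2, at 7.69, 7.22, 7.63 and 8.31, Snora2b and Snora34 were both highest at 0 Gy, Snora34 with 3.02, 2.05, 2.50 and 1.79. Both members were lower than at 0 Gy on all 3 irradiated arrays, whereas the host was lowest at 0.02 Gy and highest at 0.5 Gy. Snora34 lay below 4.06 on every array. In Gnl3, at 9.37, 9.06, 9.23 and 9.30, Snord69 and Snord19 were both at least 2-fold higher at 0.1 Gy.

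**Figure D5:**
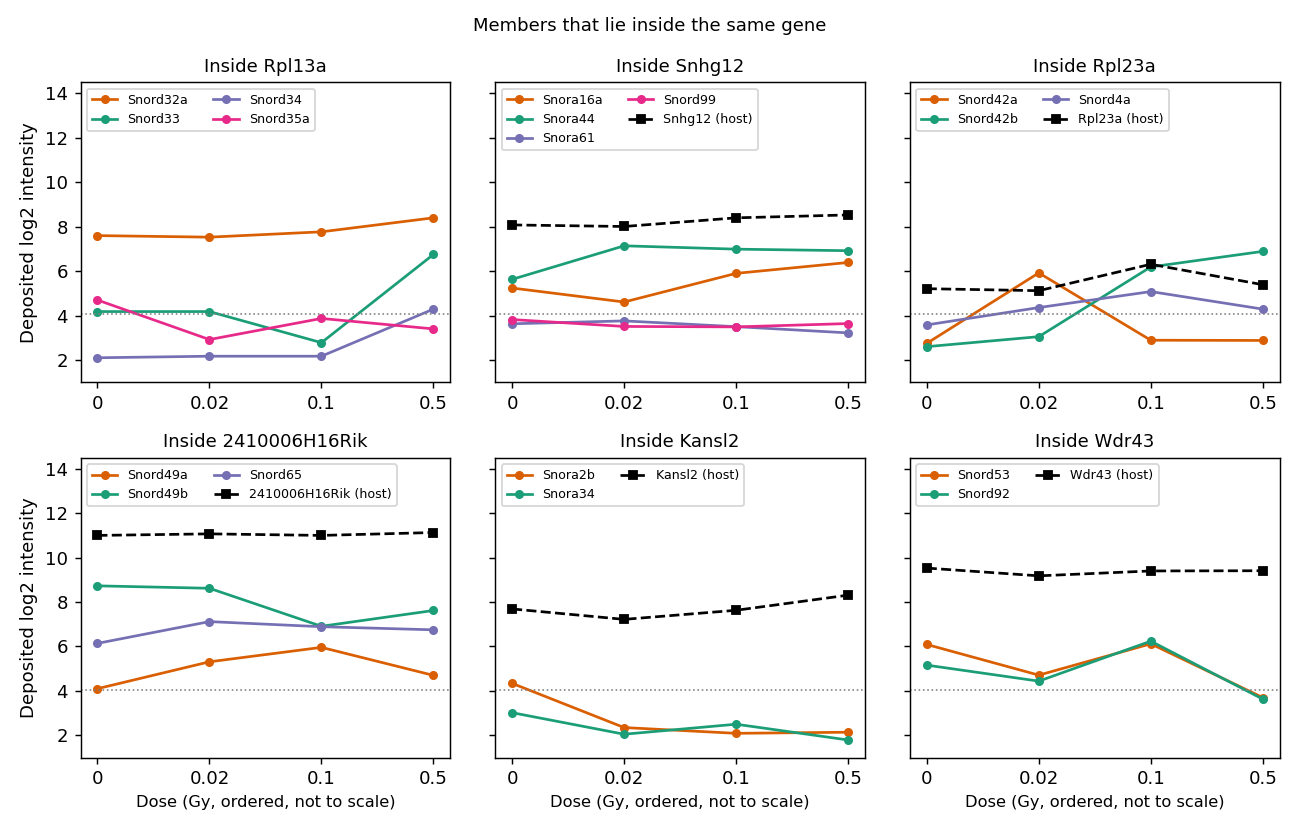
Deposited log2 intensity (vertical axis) on the 4 arrays, by dose in Gy on an ordered axis, for members inside Rpl13a, Snhg12, Rpl23a, 2410006H16Rik, Kansl2 and Wdr43, with the host as a dashed black line where it was measured. The dotted line is the median gene mean of 4.06. Between 0 and 0.1 Gy, Snord49a goes from 4.10 to 5.96 and Snord49b from 8.73 to 6.91. Snord53 and Snord92 are both lowest at 0.5 Gy and differ at 0.1 Gy, by 0.03 and 1.07 from 0 Gy.

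Lettered members, which are related copies whose probes may share targets, formed 9 pairs. Some of these pairs parted and others did not. Snora73b, a copy of the U17 RNA that helps to cut the small-subunit precursor, had 7.75, 6.72, 7.37 and 7.47, and Snora73a had 4.73, 4.44, 4.40 and 4.44, both inside Snhg3. Snord14e, a copy of U14 inside the chaperone gene Hspa8, had 7.17, 7.47, 7.71 and 7.28, and Snord14a, inside Rps13, had 6.25, 6.60, 6.50 and 6.62. These 2 pairs stayed close to their 0 Gy values except Snora73b at 0.02 Gy, which was 2.04-fold lower. Snord15a (3.52 to 4.22) had 3.93 at 0.1 Gy, where Snord15b had 7.11, both inside Rps3 at 9.98, 9.84, 9.81 and 9.94. Snord88a and Snord88c, inside 2410002F23Rik, went apart at 0.5 Gy, with differences of 2.10 and -1.15. Scarna3a (4.68 to 5.16) and Scarna3b (4.16 to 4.38) moved little, and Scarna8 had 2.23, 2.60, 2.60 and 3.12.

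A list of 33 genes covered proteins that bind, assemble or carry these RNAs and proteins of RNA polymerase I and the nucleolus. Of these, 31 were measured (22 and 9), all with means above 4.06. At least 2-fold different at 1 or more doses were 0 of 31, beside 6.19% of all named genes and 8.98% of those with a mean at or above 4.06. Nufip1, Rpap3, Phax and Ubtf had a span of 0.00 over the arrays, so no threshold could be passed by them. Of the 11593 genes with such a mean, 382 were identical on all 4 arrays. At 1.5-fold, 0 were higher and 0 lower at 0.02 Gy (4.59% and 4.27% of all named genes), 1 higher and 1 lower at 0.1 Gy (3.99% and 4.94%), and 1 higher and 0 lower at 0.5 Gy (4.36% and 5.39%). With 31 genes these counts differ from the shares of all genes by few genes. The median difference of the list was -0.06, 0.00 and 0.00, beside 0.00 over all named genes. Fbl, the fibrillarin methyltransferase of C/D particles, had 7.09, 6.75, 6.42 and 6.67, and was the gene past 1.5-fold at 0.1 Gy on the lower side. Nop56 had 9.39, 8.93, 9.25 and 9.60, and Nop58 had 9.78, 9.60, 9.78 and 9.81. Dkc1, which encodes dyskerin, the pseudouridine synthase of H/ACA particles, had 8.84, 8.44, 8.74 and 8.78. Fbl was thus lower on all 3 irradiated arrays, and Nop56, Nop58 and Dkc1 were each lowest at 0.02 Gy. Gar1 had 7.43, 7.37, 7.71 and 7.75. Wrap53, which carries scaRNAs to Cajal bodies, had 4.94, 5.33, 5.59 and 5.33, and was 0.65 higher at 0.1 Gy. Coil, the Cajal body scaffold, had 5.36, 5.35, 4.94 and 5.31. Pih1d1, an assembly factor, had 6.92, 7.03, 7.09 and 7.62.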

How the data were processed

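The authors hybridised biotin-labelled target to 1 whole-transcript array per dose, per the labels' protocols, and deposited 1 log2 intensity per probe set and array (25206 probe sets, values 1.22 to 13.0). The log base is inferred from that range. Partek is named without role or version per the submitters' processing notes. No source used here states the background correction, the normalization or the genome build. Of the probe sets, 23185 carry 1 gene symbol. Values were used as deposited, with no filter for the members. Differences from 0 Gy were counted at 2-fold.

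Both limma fits (version 3.58.1, under R 4.3.3, moderated by eBayes, p-values adjusted by Benjamini-Hochberg) were run on the 11593 genes with a mean at or above the median gene mean. A run on simulated data took its spread from these same arrays, dose differences included, and is not used here as support. Hosts were to be matched by strand, but the table used (RefSeq, GRCm38.p6) gives none for the members, so a host is any longer gene whose span covers the member. All 107 members matched by Entrez gene. Of the listed protein and marker genes not found, no value is given. Named members are all Scarna genes, the 3 brightest per class, the 6 highest and lowest per dose, the 6 per direction with the largest minimum difference over the doses and the members of hosts with 4 or more; others were chosen after their values were seen. The members and lists were chosen with earlier results of these data known. Alternatives were other scalings, filters, thresholds, controls and dose scales, ties left out and, for limma, each array left out. The number of arrays limits the precision.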

Additional observations from a re-analysis of the deposited data

How the results depend on the processing

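Quantile normalization, median centring, cyclic loess, a control made of the other 3 arrays' mean and members with 4 different values kept the counts at 2-fold within 1.5 times, between 17 and 23 at 0.02 Gy, 23 and 32 at 0.1 Gy, and 28 and 36 at 0.5 Gy. Over all named genes the shares beside these were 2.18% to 2.93%, 1.92% to 2.83% and 2.06% to 3.12%. For members with 4 different values the share beside them is that of all named genes, tied genes included. The counts followed the filter and the threshold by construction. At 0.02, 0.1 and 0.5 Gy, members with a mean at or above the median gene mean gave 11, 20 and 23 of 70. The shares of all genes with such a mean were 4.04%, 4.27% and 4.64%. A stricter filter (67th percentile) gave 5, 11 and 11 of 39 (2.87%, 3.3% and 3.53%). A threshold of 1.5-fold gave 39, 50 and 58 members (8.86%, 8.93% and 9.75% of all named genes). A threshold of 3-fold gave 12, 19 and 21 (1.07%, 0.91% and 1.07%). For members apart at all 3 doses the counts were 5, 3, 19 and 3 in the same order. Under the first filter 39 of 11593 genes were at least 2-fold higher at all 3 doses and 53 lower. For the other settings no such count over all genes is given. The stricter filter moved the median difference to 0.17 at 0.1 Gy and 0.37 at 0.5 Gy. A filter on the mean keeps members through the array on which they are high. Against the other arrays' mean, Scarna6 at 0.02 Gy turned to -0.06, Snord35b at 0.1 Gy to 0.44 and Snord38a at 0.02 Gy to 0.28. Over 46 named members, 411 of 414 values kept their side of 2-fold under the scalings. Against the other arrays' mean 93 of 138 did, 42 crossed it and 3 reversed. That mean holds irradiated arrays beside the 0 Gy array. A difference shared by all irradiated arrays therefore shrinks by construction, and its loss says nothing about the value against 0 Gy. Against that mean Snora44 had 0.63, 0.43 and 0.33 and Snora20 0.25, 1.13 and 0.76 at 0.02, 0.1 and 0.5 Gy. limma called 0 members in all alternatives of both fits, each array left out included (0 to 0; the 0 Gy array only in the line, since the other fit needs it). Without the filter the irradiated fit called 213 of all named genes (0.919%), none a member. No paired analysis was possible because each dose has 1 array.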
